A study of Mus musculus with 15 samples.

Results

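The genes described here are 49 mouse genes of the cell cycle and DNA replication, measured in knee joint synovium over the course of collagen-induced arthritis (CIA), a mouse model of inflammatory joint disease that follows immunization with type II collagen. They were chosen by gene symbol. A probe set (a group of short probes that together measure one transcript) counted for a gene if the platform annotation gave that gene as its only symbol, and the probe set with the highest mean over the 15 arrays stood for the gene. Of the 49 genes, 48 had such a probe set, among 18193 named genes on the array. Ccnb1, which encodes cyclin B1, had none in the annotation used here. The signal filter required 3 or more arrays with a signal over the 40th percentile of the same array, and 46 of the 48 passed it, as did 14314 genes in all. Tyms (thymidylate synthase) and Ndc80 (a kinetochore subunit) lay below it, with signals of at most 38.1 and 25.8.

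The 15 arrays form 5 groups of 3. The first group is labelled as healthy synovium of naive mice. The other groups are synovium of CIA mice with no swelling, mild swelling, moderate swelling or severe swelling of the joint. Per the labels, arthritis was induced on day 0 by immunization with type II collagen (100 ug) together with FCA, and a boost of the same collagen dose was given i. p. on day 21. The same protocol text is attached to the naive arrays, whose titles and source name call them naive and healthy. Strain, age and day of sampling are not given in the sources used here. It is also not stated whether each array holds RNA of 1 mouse or of a pool. The p-values therefore set group differences against the spread between arrays of a group, a spread that may be technical. With 3 arrays in each group, the smallest p of an exact permutation test is 0.1, so the tests come from limma, which shares information on the spread over all genes and arrays.

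A dividing cell passes from G1, when D- and E-type cyclins with Cdk4 and Cdk2 inactivate the retinoblastoma proteins and free E2F transcription factors, into S phase, when the Mcm helicase opens DNA at licensed origins and polymerases copy it on the Pcna clamp. Mitotic genes follow under FoxM1 and B-Myb, and cyclin B with Cdk1, the Aurora and Polo-like kinases and the kinetochore drive chromosome separation. In quiescent cells both waves are held down by repressor complexes that bind E2F sites and, in mitotic genes, CHR elements in the promoter. In arthritis the synovial lining thickens as leukocytes enter and resident cells divide.

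Values are MAS5 signals in linear intensity units as deposited, and the 2% trimmed mean is 150 on every array. The array medians ranged from 36.3 to 47.6 and the 40th percentiles from 23.4 to 31.1. Fold changes below are differences of log2(signal + 16), with the SE of the fit and 3 arrays in each group, and they understate the change of weak genes. A gene is called where limma's adjusted p, over all genes tested, is under 0.05. The synovial lining marker Prg4 and the fibroblast and macrophage marker lists passed the filter in full, and so did the 10 skeletal muscle markers. In whole tissue, more dividing cells and more RNA per cell cannot be told apart.

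Promoters of 6 members are shown, taken from the members that changed most in swollen joints and chosen for the matches their promoters hold to E2F, CHR and CCAAT elements, the last being the binding site of the factor NF-Y. Each line gives the last 150 bases before the RefSeq gene start on mouse build GRCm38.p6, 5′ to 3′ on the gene's strand. Capitals mark letters of an E2F site (TTTCCCGC, TTTCGCGC, TTTGCCGC or TTTGGCGC), a CCAAT box or a CHR element (TTTGAA or TTCGAA), found on either strand, with overlapping matches run together and a match at the edge shown in part.
Mcm5, chr8:75109359-75109508, plus strand: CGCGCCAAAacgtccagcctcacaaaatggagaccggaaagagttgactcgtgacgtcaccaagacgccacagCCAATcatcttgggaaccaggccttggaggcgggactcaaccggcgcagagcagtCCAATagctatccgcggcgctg
Mcm6, chr1:128359706-128359855, minus strand: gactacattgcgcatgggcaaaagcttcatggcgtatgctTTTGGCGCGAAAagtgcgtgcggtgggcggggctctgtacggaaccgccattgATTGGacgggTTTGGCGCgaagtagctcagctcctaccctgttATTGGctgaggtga
Cdk1, chr10:69352913-69353062, minus strand: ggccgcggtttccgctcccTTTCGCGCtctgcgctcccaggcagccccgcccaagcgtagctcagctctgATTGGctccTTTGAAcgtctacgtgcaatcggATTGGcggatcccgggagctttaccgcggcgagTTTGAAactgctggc
Ccnb2, chr9:70421555-70421704, minus strand: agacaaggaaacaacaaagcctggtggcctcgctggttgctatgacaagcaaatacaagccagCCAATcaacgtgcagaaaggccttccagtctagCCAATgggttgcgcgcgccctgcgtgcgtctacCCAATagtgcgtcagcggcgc
Cdc20, chr4:118437344-118437493, minus strand: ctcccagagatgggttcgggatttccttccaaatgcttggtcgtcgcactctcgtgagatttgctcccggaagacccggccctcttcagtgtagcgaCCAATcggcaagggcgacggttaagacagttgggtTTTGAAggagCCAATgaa
Top2a, chr11:99024190-99024339, minus strand: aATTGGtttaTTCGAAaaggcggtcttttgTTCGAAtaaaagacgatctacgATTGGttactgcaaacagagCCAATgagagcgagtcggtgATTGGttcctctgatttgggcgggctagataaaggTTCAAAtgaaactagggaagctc
The helicase genes Mcm5 and Mcm6 hold E2F matches and CCAAT boxes, Cdk1 holds all 3 kinds of element, and Cdc20 and Top2a pair CCAAT boxes with CHR elements. Ccnb2 holds 3 CCAAT boxes in the stretch shown and a CHR match further upstream.

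RefSeq promoters were matched by symbol for 40 of the 49 members. In the 250 bases before the start, an E2F site was found in 6 of these (15%), against 1.91% of the 27025 promoters in the table. A CCAAT box stood in 28 of the 40 (70%), against 34.5%, and a CHR element in 12 (30%), against 17.4%. In the last 150 bases the 3 shares were 12.5%, 67.5% and 22.5%, against 1.26%, 25.3% and 9.89%. Over the whole 300 bases of the table, which run 50 bases past the start, they were 17.5%, 70% and 52.5%, against 2.32%, 37.9% and 19.4%. The 250 bases were richer in G and C in the members (58.7% against 53%). Matches describe only the letters in these windows. Birc5, for example, held no match to the 3 elements in its 250 bases.

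In severely swollen joints nearly all members tested were above their naive level, from origin licensing to cytokinesis. With severe swelling 42 of the 46 members tested were called higher (91.3%), where 32.3% of all genes tested were, and 2 were called lower, where 22.9% of all genes were. The median log2 fold change was 1.62 over the members and 0.11 over all genes. The 2 lower members were Aurka and Ccne2, and Ccne1 and Tpx2 were not called. Because weak genes could pass the filter through the swollen groups alone, the 22 members above the 40th percentile on all 15 arrays are the firmer base. Of these, 19 were called higher and 2 lower, with a median of 1.35. The share called among all genes that meet this stricter condition was not computed.

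**Figure D1:**
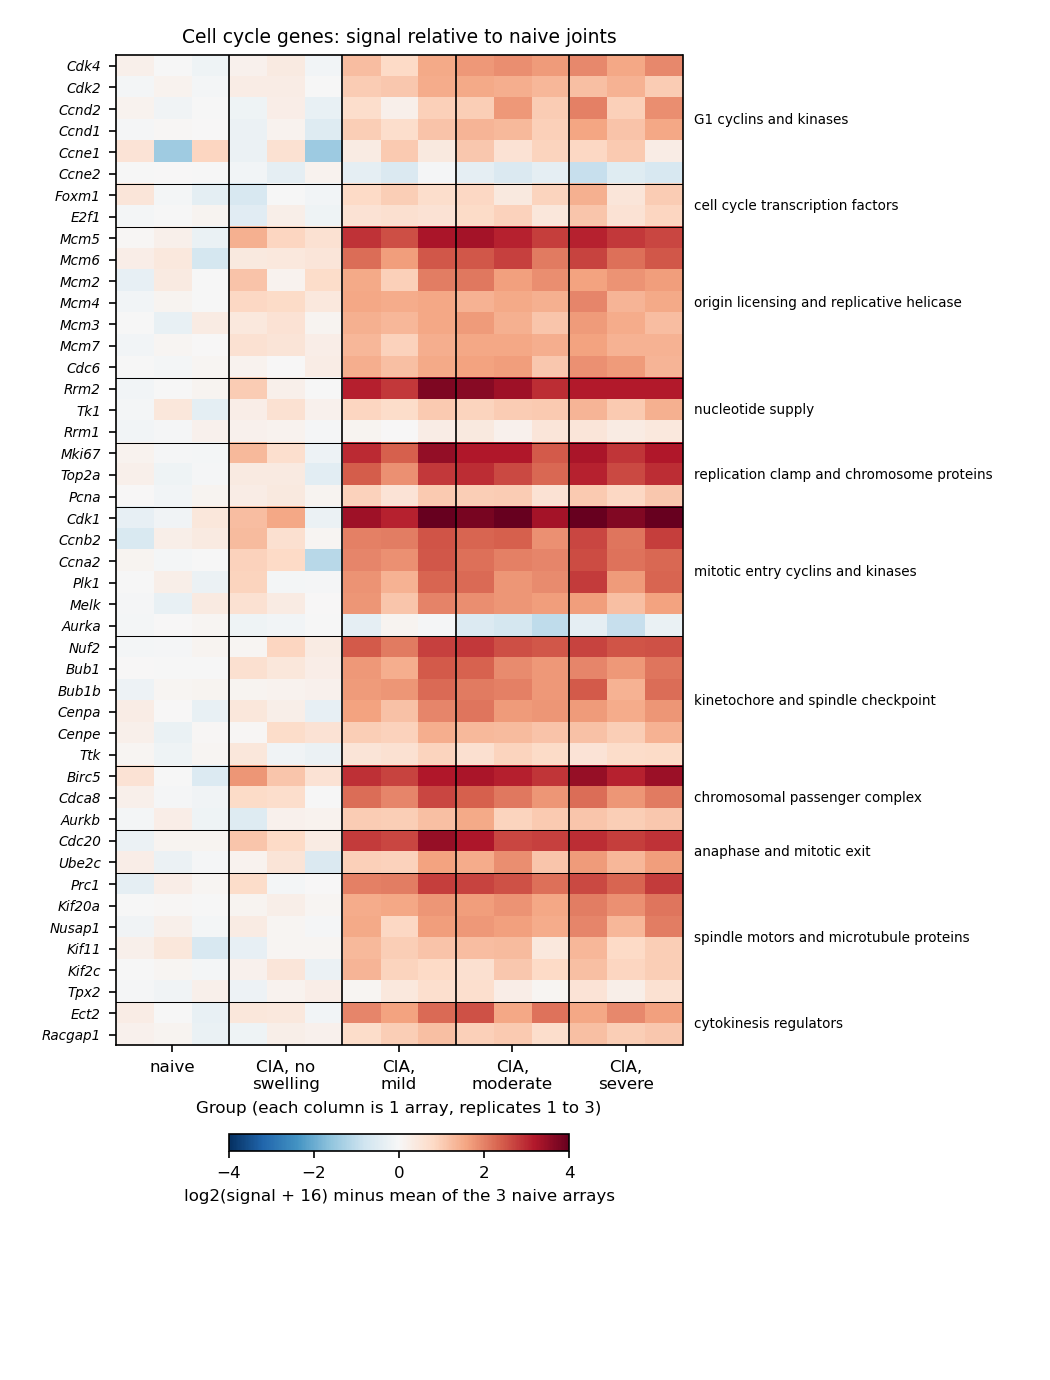
Each row is a cell cycle gene, grouped by role, and each column an array; colour gives log2(signal + 16) minus the mean of the 3 naive arrays. Most rows turn red between the no-swelling and mild columns and keep that colour through severe swelling, while Ccne2 and Aurka turn blue.

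Among the G1 genes, the kinases rose with severe swelling and the cyclins split. Of 6 tested, 4 were called higher and 1 lower. Cdk4, the partner of D-type cyclins, changed by 1.81 ± 0.18 (SE; adjusted p = 7.95e-07) on the log2 scale, and Cdk2, the partner of cyclins E and A, was called higher too. The D-type cyclin genes Ccnd1 and Ccnd2 gave 1.43 and 1.61. Ccne1, which encodes cyclin E1, was variable between arrays of a group, with naive signals of 79.2, 8.2 and 100.4, and its 0.73 was not called (95% interval from -0.38 to 1.83). Both transcription factors of the list were called higher, E2f1, which activates S-phase genes, by 0.85 and Foxm1, which activates mitotic genes, by 0.97.

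Ccne2 had signals of 136, 142 and 138 in naive joints and 128, 104 and 154 in immunized joints without swelling. The Ccne2 values in swollen joints were 104, 87.4 and 134 with mild, 104, 87.2 and 104 with moderate and 64.9, 95.3 and 84.2 with severe swelling. Ccne2 encodes cyclin E2, and its severe arrays all lay below its naive arrays, a change of -0.68 ± 0.17 (SE; adjusted p = 0.00293). With the arrays scaled on the hybridization controls this became -0.47 with an adjusted p of 0.208.

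All 7 members listed under origin licensing and the replicative helicase rose with severe swelling, with a median log2 fold change of 1.63. Mcm5 and Mcm6 are 2 of the 6 helicase subunits. Mcm5 had signals of 20.7, 24.8 and 13.5 in naive joints and 78.6, 47.7 and 37.7 in immunized joints without swelling. With swelling, Mcm5 stood at 244, 195 and 324 with mild, 339.6, 284 and 223 with moderate and 281, 234 and 209.5 with severe swelling. Every swollen-joint array exceeded every naive and every no-swelling array, and the severe change was 2.85 ± 0.23 (SE; adjusted p = 1.75e-07). Mcm6 gave 2.47 ± 0.27 (SE), while Mcm2, Mcm3, Mcm4 and Mcm7 lay between 1.46 and 1.70. Cdc6, which loads the helicase onto origins, was nearly undetected in naive joints, with 1.7, 1.0 and 2.9, and reached 48.0, 42.1 and 29.7 with severe swelling. Its fold of 1.63 is therefore compressed by the pseudocount.

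All 3 tested nucleotide supply genes rose with severe swelling, by 0.42 to 3.18. Rrm2 and Rrm1 encode the small and large subunits of ribonucleotide reductase, which makes deoxynucleotides. Rrm2 had signals of 27.2, 30.4 and 34.6 in naive joints and 78.4, 38.1 and 29.7 in immunized joints without swelling. Among swollen joints Rrm2 gave 389.7, 312 and 599 with mild, 559, 472 and 343 with moderate and 405, 407 and 407 with severe swelling. Swollen and unswollen joints did not overlap, and the 3 severe arrays lay close together. The Rrm2 change with severe swelling was 3.18 ± 0.26 (SE; adjusted p = 1.81e-07). Rrm1 had 231, 245 and 283 in naive and 363, 324 and 345 in severe joints and gave 0.42 ± 0.13 (SE; adjusted p = 0.00992). With array medians aligned this was 0.26 with an adjusted p of 0.138. Tk1, the thymidine kinase of the salvage route, gave 1.28 ± 0.19 (SE).

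All 3 genes of chromosome proteins and the replication clamp rose. Mki67 encodes Ki-67, the usual histological marker of dividing cells. Mki67 had signals of 31.7, 25.3 and 24.5 in naive joints and 90.7, 53.1 and 21.3 in immunized joints without swelling. Swollen joints had Mki67 values of 323, 208 and 471 with mild, 379, 383 and 221 with moderate and 395, 297 and 376 with severe swelling. The no-swelling arrays straddled the naive range, and the swollen arrays were all above both groups. Top2a had signals of 48.7, 32.9 and 38.4 in naive joints and 55.6, 54.7 and 25.6 in immunized joints without swelling. The Top2a values in swollen joints were 279, 181 and 377 with mild, 414, 332 and 257 with moderate and 452, 330.3 and 412 with severe swelling. Top2a encodes topoisomerase II alpha, which untangles sister chromatids. The severe changes were 3.10 ± 0.33 (SE; adjusted p = 1.63e-06) for Mki67 and 2.88 ± 0.26 (SE; adjusted p = 4.22e-07) for Top2a. Pcna, the clamp, went from 708, 644 and 759 in naive to 1456, 1249.5 and 1515 in severe joints and changed by 0.98 ± 0.15 (SE).

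**Figure D2:**
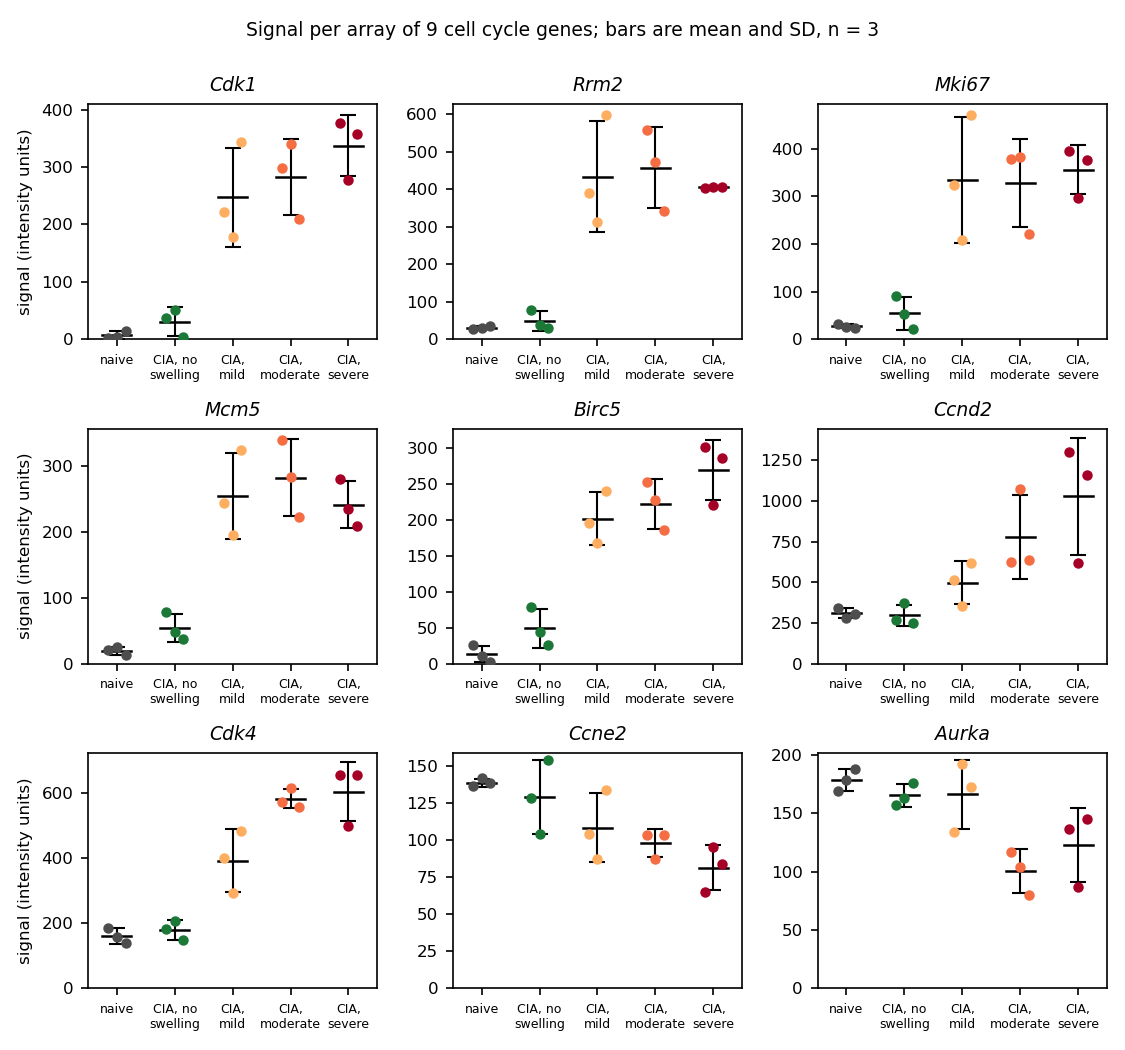
Signal in linear intensity units for 9 genes; points are arrays, bars the group mean and SD (n = 3 arrays). Cdk1, Rrm2, Mki67, Mcm5 and Birc5 step up at mild swelling, Ccnd2 and Cdk4 have their highest mean in severe swelling, and Ccne2 and Aurka have lower means in severe than in naive joints.

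The kinases and cyclins of mitotic entry rose with 1 exception. Cdk1 is the mitotic kinase itself. Cdk1 had signals of 2.3, 4.7 and 15.0 in naive joints and 37.9, 51.1 and 3.3 in immunized joints without swelling. With swelling, Cdk1 stood at 221, 178 and 344 with mild, 298, 340.4 and 210.3 with moderate and 377, 277 and 357 with severe swelling. In naive joints and on no-swelling replicate 3 Cdk1 was close to the bottom of the scale, whereas every swollen joint had at least 178. The change was 3.95 ± 0.37 (SE; adjusted p = 5.93e-07), a size that depends on the pseudocount because the naive signals are so low. Ccnb2 encodes its partner, cyclin B2. Ccnb2 had signals of 3.9, 19.9 and 23.1 in naive joints and 57.7, 30.8 and 15.8 in immunized joints without swelling. Among swollen joints Ccnb2 gave 108, 108 and 157 with mild, 138, 143 and 92.3 with moderate and 176, 119 and 192 with severe swelling. The severe range lay wholly above the naive range, with a change of 2.53 ± 0.31 (SE; adjusted p = 5.23e-06). Ccna2 (cyclin A2) and Plk1 (Polo-like kinase 1) gave 2.35 and 2.27, and Melk was called higher as well.

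Aurka encodes Aurora A, the kinase of the spindle poles, and it went the other way. Aurka had signals of 169, 178 and 188 in naive joints and 157, 163 and 176 in immunized joints without swelling. Swollen joints had Aurka values of 134, 192 and 172 with mild, 117, 104 and 79.8 with moderate and 137, 86.6 and 145 with severe swelling. Moderate and severe arrays were all below the naive arrays, while mild arrays overlapped them. The severe change was -0.51 ± 0.18 (SE; adjusted p = 0.023) and the moderate change -0.75 ± 0.18 (SE; adjusted p = 0.00203). The moderate value was -0.26 with scaling on the hybridization controls (adjusted p = 0.506). Without severe replicate 2 the severe value was -0.31 with an adjusted p of 0.133, and it also missed the threshold without naive replicate 2 (0.0518) or 3 (0.0683). Scaled on the hybridization controls it was -0.30 with an adjusted p of 0.458. Aurkb (Aurora B), by comparison, gave 1.07 ± 0.21 (SE). Tpx2, which activates Aurora A on the spindle, gave 0.46 ± 0.20 (SE; adjusted p = 0.0607) and was not called, though it was without moderate replicate 1 (0.0472) or severe replicate 2 (0.0386).

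All 6 tested kinetochore and spindle checkpoint genes rose, with a median of 1.80. Nuf2, a subunit of the Ndc80 complex that holds microtubules, is one of them. Nuf2 had signals of 3.6, 3.8 and 6.1 in naive joints and 5.8, 21.5 and 9.5 in immunized joints without swelling. The Nuf2 values in swollen joints were 95.2, 70.1 and 120.0 with mild, 130.0, 106 and 98.3 with moderate and 116, 100.0 and 105 with severe swelling. Naive values were near the bottom of the scale, and the severe change was 2.58 ± 0.21 (SE; adjusted p = 2.22e-07). The checkpoint kinase genes Bub1, Bub1b and Ttk gave 1.95, 2.02 and 0.69, and the centromere genes Cenpa and Cenpe gave 1.66 and 1.18.

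The chromosomal passenger complex, which corrects faulty spindle attachments, had 3 tested members and all rose. Birc5 encodes its subunit survivin. Birc5 had signals of 25.5, 11.5 and 3.2 in naive joints and 78.7, 44.2 and 25.5 in immunized joints without swelling. With swelling, Birc5 stood at 196, 168 and 240.5 with mild, 253, 228 and 185 with moderate and 300.5, 221 and 286 with severe swelling. Only naive replicate 1 and no-swelling replicate 3 shared a value, and every swollen joint was above both groups. The severe change was 3.34 ± 0.29 (SE; adjusted p = 3.08e-07), and Cdca8 (borealin) gave 2.03.

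Genes of mitotic exit rose as well. Cdc20 activates the anaphase-promoting complex, the ubiquitin ligase that starts chromosome separation. Cdc20 had signals of 24.1, 34.6 and 34.4 in naive joints and 85.8, 66.0 and 42.5 in immunized joints without swelling. Among swollen joints Cdc20 gave 308, 285 and 512 with mild, 423, 284 and 295 with moderate and 346, 303 and 334 with severe swelling. Values in mild, moderate and severe joints overlapped one another and lay above all others. Cdc20 changed by 2.88 ± 0.23 (SE; adjusted p = 1.75e-07) with severe swelling and Ube2c, the ligase's ubiquitin-conjugating enzyme, by 1.57 ± 0.27 (SE).

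Of 6 spindle motor and microtubule genes, 5 rose. Prc1, which bundles the microtubules of the central spindle, is one of them. Prc1 had signals of 15.2, 32.1 and 25.5 in naive joints and 50.2, 21.7 and 24.3 in immunized joints without swelling. Swollen joints had Prc1 values of 144, 147 and 254 with mild, 243, 218 and 168 with moderate and 229, 185 and 258 with severe swelling. The naive and no-swelling ranges overlapped and the swollen arrays stood apart from both, with a severe change of 2.58 ± 0.25 (SE; adjusted p = 7.64e-07). Kif20a, Nusap1, Kif11 and Kif2c gave 2.01, 1.79, 1.03 and 1.02. Both cytokinesis regulators rose, Ect2 by 1.70 and Racgap1 by 1.08.

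Immunization without swelling was accompanied by a small rise of a few members. Birc5, Mcm4 and Mcm5 were called higher than in naive joints and no member was called lower, 3 of 46 (6.52%), where 1.52% of all genes were called higher and 1.76% lower. Mcm4, another helicase subunit, had 86.7, 105 and 94.1 in naive and 180.0, 174 and 134 in unswollen immunized joints, with no overlap, and 305, 298 and 307 at mild, 276, 299.9 and 284 at moderate and 411, 268 and 302 at severe swelling. The log2 fold changes were 1.14 ± 0.29 (SE; adjusted p = 0.0419) for Birc5, 0.68 ± 0.15 (SE; adjusted p = 0.0245) for Mcm4 and 0.96 ± 0.23 (SE; adjusted p = 0.0334) for Mcm5. The S-phase members (helicase, licensing and nucleotide supply genes) had a median of 0.41, the mitotic members one of 0.20, and all genes tested -0.01. The difference between the S-phase and mitotic members was not tested. With scaling on the hybridization controls the median was 0.07 over all members and -0.175 over all genes.

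These 3 calls were fragile. Without no-swelling replicate 1 or naive replicate 3 none of the members was called, without naive replicate 1 or 2 or no-swelling replicate 2 only 1 was, and without no-swelling replicate 3 there were 6. Birc5 missed the threshold without naive replicate 2 or 3, no-swelling replicate 1 or 2, mild replicate 1, moderate replicate 1 or 2 or severe replicate 1 or 3 (log2 fold change 0.84 to 1.16, adjusted p 0.0515 to 0.188). Mcm4 did so without naive replicate 1 or 3 or no-swelling replicate 1 or 2 (0.60 to 0.67, adjusted p 0.0532 to 0.113), and Mcm5 without any 1 of the naive arrays or no-swelling replicate 1 (0.73 to 1.06, adjusted p 0.0591 to 0.156). No-swelling replicate 3 had the lowest value of its group for 30 of the 46 members, and its median over the members was 0.02 above the naive mean, against 0.31 and 0.34 on the other arrays of the group. It also had the lowest summed signals of its group for macrophage markers (2568 against 5431 and 6329) and neutrophil markers (347.9 against 2372 and 835.3). Its sums were likewise the lowest of the group for markers of fibroblasts (13310 against 16620 and 20090), lining fibroblasts (4143 against 6652 and 5960) and chondrocytes (379.4 against 550 and 867.8). The part of these cells in the result was not tested.

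Of the steps between neighbouring groups, the onset of swelling had the highest median change over the members. Mild swelling against no swelling, both in immunized mice, gave 40 of 46 members called higher (87%), where 23.0% of all genes were called higher, and 0 lower, where 15.6% were. Among the 22 members above the 40th percentile on all arrays, 17 were called higher, again without a share over all genes that meet this condition. The median log2 fold change was 1.18 over the members and 0.09 over all genes. The highest values were 2.82 for Rrm2, 2.63 for Cdk1, 2.36 for Mki67, 2.25 for Top2a and 2.24 for Cdc20. Aurka, Ccnd2, Ccne1, Ccne2, Rrm1 and Tpx2 were not called. Mitotic members had a median of 1.46 and S-phase members one of 0.95, a difference that was not tested. Tk1, at 0.52 ± 0.19 (SE; adjusted p = 0.0434), lost the call without naive replicate 1, no-swelling replicate 1 or 3, mild replicate 1 or 3, any 1 of the moderate arrays or severe replicate 1, at adjusted p-values from 0.0514 to 0.15. Mcm2 lost it without no-swelling replicate 2 (0.108) or mild replicate 1 (0.0549) or 3 (0.121), Ttk without no-swelling replicate 2 (0.0664) or 3 (0.0941) or mild replicate 3 (0.0934), and Cenpe without no-swelling replicate 1 (0.0994) or mild replicate 3 (0.104). Ccnd2 gained it without no-swelling, mild, moderate or severe replicate 2 or severe replicate 1 (0.0184 to 0.0482), and Ccne1 without no-swelling replicate 2 (0.0477).

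Against naive joints, mild swelling gave 40 members called higher (87%), where 23.1% of all genes were, and 0 called lower, where 17.0% were. Moderate swelling gave 42 higher (91.3%), where 30.9% of all genes were, and 2 lower (Aurka and Ccne2), where 23.8% were. Of these, Ccne2 at -0.44 lost its call without any 1 of the naive or moderate arrays (adjusted p from 0.0537 to 0.12) and without a filter on low signal (0.0543). With scaling on the hybridization controls neither was called, Ccne2 at 0.04 (adjusted p = 0.917) and Aurka at -0.26 (adjusted p = 0.506). The medians over the members were 1.41 and 1.56. These comparisons share the naive arrays with each other and with the severe one. A test for any difference among the 5 groups called 44 of the 46 members, all but Ccne1 and Tpx2, where it called 60.7% of all genes.

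**Figure D3:**
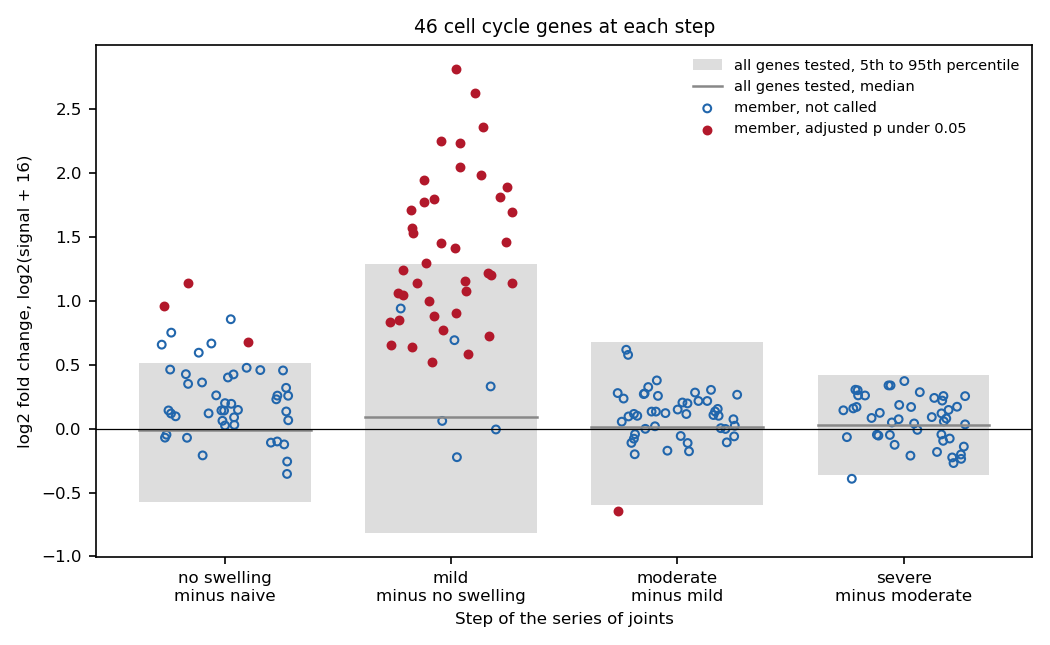
Log2 fold change of each of the 46 members at each step between neighbouring groups; filled red points have an adjusted p under 0.05, and the grey box spans the 5th to 95th percentile of all genes tested, with their median as a line. The members leave the grey box mainly at the step from no swelling to mild, where 40 are called, and no member is called from moderate to severe.

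Past mild swelling few members were called. From mild to moderate swelling 0 members were called higher, where 3.30% of all genes were, and 1 was called lower, where 3.43% were. That 1 was Aurka, at -0.65 ± 0.18 (SE; adjusted p = 0.0416), with mild signals of 134, 192 and 172 and moderate signals of 117, 104 and 79.8 that did not overlap. The call was lost without any of the naive replicates (adjusted p from 0.0565 to 0.057), no-swelling replicate 1 (0.0516), mild replicate 2 (0.194) or 3 (0.057), or moderate replicate 2 (0.101) or 3 (0.137), and without severe replicate 2 there were 2 calls. From moderate to severe swelling 0 members were called in either direction, as were 0 and 0 of all genes tested (0% and 0%). At an unadjusted p under 0.05 the limma fit had 0 members and 888 of all genes (6.2%). The 95% intervals of all 46 members contained 0, and those of 43 lay within 1 log2 unit of it, so a larger change lay outside their intervals. Ccna2, Ccne1 and Cdk1 had wider intervals, up to 1.23. The median over the members was 0.08, and it was -0.01 with array medians aligned and -0.20 with scaling on the hybridization controls, a scaling that moved the median of all genes to -0.25.

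A pair of G1 genes still differed between mild and severe swelling. Ccnd2 and Cdk4 were called higher, 2 of 46 (4.35%), where 6.14% of all genes were called higher and 6.13% lower, a share near the background, and 0 members were called lower. The values of these genes are given because they were called here, a choice made after the values were seen. Ccnd2 had signals of 341, 282 and 307 in naive joints and 270.1, 374 and 251 in immunized joints without swelling. The Ccnd2 values in swollen joints were 514, 357 and 619.7 with mild, 624, 1074 and 635 with moderate and 1302, 620.4 and 1160.5 with severe swelling. Severe replicate 2 lay at the level of mild replicate 3. Cdk4 had signals of 185, 158 and 138 in naive joints and 182, 207 and 148 in immunized joints without swelling. With swelling, Cdk4 stood at 400.0, 292 and 483 with mild, 572, 614 and 557 with moderate and 655, 498 and 655 with severe swelling. All severe Cdk4 values exceeded all mild ones. The log2 fold changes were 0.99 ± 0.27 (SE; adjusted p = 0.0291) and 0.62 ± 0.18 (SE; adjusted p = 0.0341). Both calls were lost without mild replicate 1 or 2 or severe replicate 1 or 3, at adjusted p-values from 0.0633 to 0.159, and with scaling on the hybridization controls, at 0.60 (0.279) and 0.23 (0.71).

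The highest group mean fell in severe swelling for 26 members, in moderate for 14, in mild for 4 and in naive joints for 2, and the lowest fell in naive joints for 37 and in unswollen immunized joints for 7. Within the swollen groups single arrays ordered the members alike. Mild replicate 3 was the highest of its group for 40 members and mild replicate 2 the lowest for 33, moderate replicate 3 the lowest for 31 and severe replicate 2 the lowest for 36. In each of these groups the array lowest in most members also had the lowest summed macrophage marker signal, 10360 against 13120 and 15210 in mild, 12940 against 14650 and 15930 in moderate, and 13700 against 16970 and 18430 in severe joints. Other lists did not all follow this order. The lowest neutrophil sum in mild joints was on replicate 1 (3996, against 4052 on replicate 2), and moderate replicate 1, the highest of its group for 26 members, had the lowest fibroblast (28610) and osteoclast (3913) sums of that group. The part of these cells in the members' values was not tested.

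Most members had further probe sets, and these mostly ran the same way. Of the 89 probe sets above the filter for the 46 genes, 75 were called higher and 3 lower in severe swelling, and 11 were not called, where 28.3% of the 31522 probe sets tested were higher and 21.3% lower. Cenpa, the centromeric histone, disagreed with itself. Its stronger probe set rose by 1.66 ± 0.23 (SE) and another fell by 1.44 ± 0.24 (SE), so the direction for Cenpa depends on the probe set. The rising one was above the 40th percentile on 15 arrays, with a mean signal of 134.3. The falling one was above it on 5 arrays, with a mean of 21.47. Rrm1 gave 0.42 on the probe set used and -0.38 ± 0.15 (SE; adjusted p = 0.053) on another. The size of a change could depend on the probe set as well. Cdc20 gave 2.875 on the probe set used and 1.004 on another, Top2a 2.885 and 0.731, and Mcm5 2.855 and 1.621. Prc1 gave more on the other probe set, 2.885 against 2.585. Ccnd2 gave 1.614 on the probe set used and 1.296, 1.157, 0.713 and 0.674 on others, where the 0.713 was not called (adjusted p = 0.0731). For mild against no swelling these Ccnd2 probe sets gave, in the same order, 0.693, 0.549, 0.616, -0.041 and -0.047. At the mild step, 66 of the 89 were called higher and 0 lower, against 18.4% and 13.3% of all probe sets. In unswollen immunized joints 4 were called higher and 0 lower, against 1.24% and 1.53%, the fourth being a second Mcm6 probe set at 0.93 ± 0.21 (SE; adjusted p = 0.0293). The Mcm6 probe set used gave 0.425 there and was not called (adjusted p = 0.4404). Mcm5 gave 0.958 on the probe set used but -0.053 on another (adjusted p = 0.9512), so its call depends on the probe set. A second Mcm4 probe set gave 0.746 and was not called (adjusted p = 0.08117).

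The members were set beside 6 further lists of cell cycle genes, for severe swelling against naive joints, where 32.3% of all genes were called higher, 22.9% lower, and the median was 0.11. Of 49 other genes of the mitotic machinery 40 were called higher in severe swelling and 0 lower, with a median of 1.48. Cks2, a small subunit of cyclin-dependent kinases, gave 3.68 ± 0.31 (SE; adjusted p = 2.87e-07), and the kinesins Kif22 and Kif4 gave 2.35 and 2.12. Of 41 other replication genes 22 were called higher and 2 lower, with a median of 0.61. Uhrf1, which carries DNA methylation through replication, gave 2.66 ± 0.21 (SE; adjusted p = 1.60e-07), the licensing factor Cdt1 2.30 and Dbf4, the activator of the Cdc7 kinase, 1.89. The lower genes were Rfc4 at -0.65, a subunit of the clamp loader, and Orc4 at -0.61 ± 0.12 (SE), a subunit of the origin recognition complex.

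Of 6 CDK inhibitor genes tested, which restrain the cycle, 1 was called higher and 1 lower, against 32.3% and 22.9% of all genes, with a median of -0.01. Cdkn1a, which encodes p21, gave 0.93 ± 0.21 (SE; adjusted p = 0.00124), and Cdkn1b, which encodes p27, gave -0.68 ± 0.17 (SE; adjusted p = 0.00276). Cdkn1c, Cdkn2c, Cdkn2d and Cdkn2b gave -0.05, -0.06, 0.02 and 0.28 and were not called, and Cdkn2a lay below the filter. Among 16 pocket protein, repressive E2F and quiescence genes 4 were called higher and 5 lower, with a median of -0.06, beside the same 32.3% and 22.9% of all genes. The antiproliferative genes Btg1 and Btg2 gave 2.40 and 1.06 and the pocket protein gene Rbl1 1.14. E2f6, Tob1 and the pocket protein gene Rbl2 gave -2.19, -1.23 and -0.69.

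Of 16 DNA damage and recombination genes 12 were higher and 0 lower, with a median of 0.69. The checkpoint kinase gene Chek1 gave 1.88 ± 0.27 (SE; adjusted p = 2.54e-05), Timeless 1.21 and Rad51ap1 1.12. Of 8 further G1 genes 5 were higher and 2 lower. Myc, a transcription factor that promotes cell growth, gave 2.58 ± 0.21 (SE; adjusted p = 2.22e-07), Cdk6 2.20 and E2f2 1.42, while E2f3 and Ccnh gave -0.53 and -0.40. These lists and the members were chosen with earlier results known, and no difference between lists was tested.

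**Figure D4:**
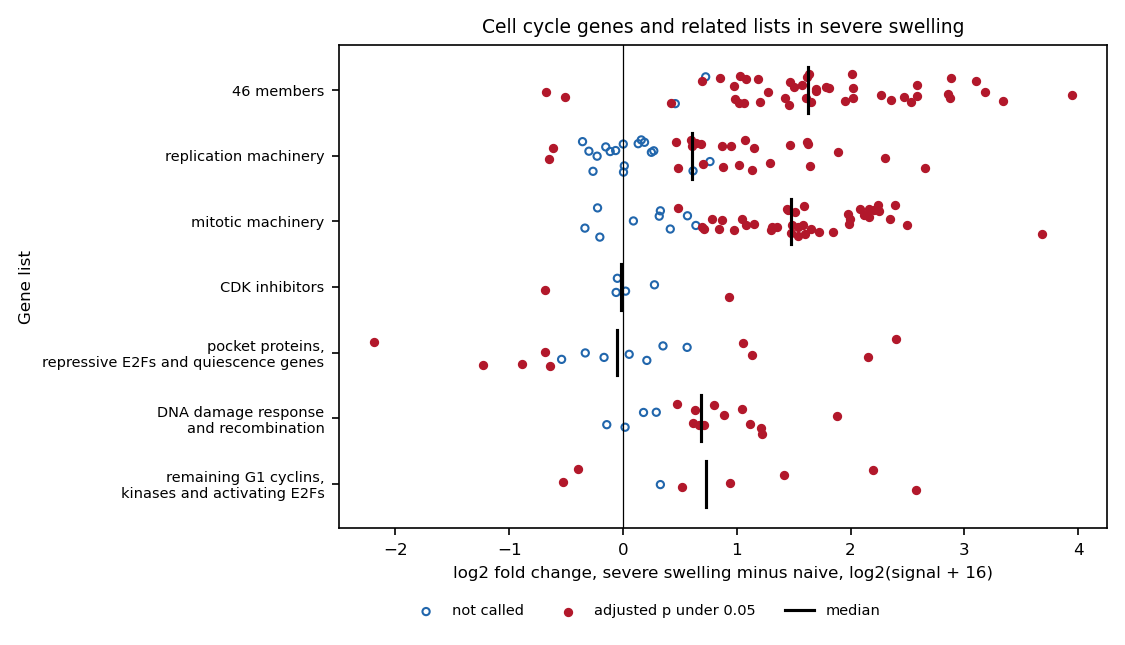
Log2 fold change from naive to severe swelling of the 46 members and of the genes of 6 related lists; filled red points have an adjusted p under 0.05 and the black bar is the list's median. The members and the mitotic machinery lie furthest right, with medians of 1.62 and 1.48, and the CDK inhibitors and the pocket protein list lie around 0.

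Markers of other cells were summed on each array, and their ranges are given in the order naive, no swelling, mild, moderate and severe, with the calls for severe swelling against naive joints. Macrophage markers summed to 3302 to 3566, 2568 to 6329, 10360 to 15210, 12940 to 15930 and 13700 to 18430, with 9 of 10 tested called higher and 0 lower. Sums of neutrophil markers were 72.7 to 102.8, 347.9 to 2372, 3996 to 8509, 6290 to 9428 and 8321 to 11560, with 5 of 5 tested called higher and 0 lower. Fibroblast markers ran at 17530 to 18480, 13310 to 20090, 22080 to 33680, 28610 to 44390 and 37450 to 55020, with 10 of 10 tested called higher and 0 lower. Lining fibroblast markers gave 4103 to 4843, 4143 to 6652, 8123 to 8883, 6526 to 9533 and 9119 to 11340, with 3 of 6 tested called higher and 2 lower. These myeloid and fibroblast lists had higher sums in every swollen joint than in every naive one. Osteoclast markers gave 231.1 to 289.5, 271.1 to 488.8, 747.6 to 2318, 3913 to 5355 and 3131 to 5472, with 4 of 4 tested called higher and 0 lower, and Calcr lay below the filter. For chondrocyte markers the sums were 723.9 to 811.3, 379.4 to 867.8, 645.7 to 3032, 3339 to 5084 and 3597 to 5808, with 5 of 5 tested called higher and 0 lower, and Matn1 lay below the filter. Endothelial markers ran at 1289 to 1479, 972.1 to 1156, 1281 to 1454, 1718 to 2268 and 1848 to 2134, with 2 of 6 tested called higher and 0 lower. Osteoclast sums were also higher in every swollen joint than in every naive one, while chondrocyte and endothelial sums overlapped between naive and mild joints. Skeletal muscle markers gave 85130 to 99250, 99330 to 103000, 63880 to 68570, 45390 to 74340 and 69310 to 98120, with 0 of 10 tested called higher and 3 lower. Adipocyte markers summed to 8827 to 11990, 9790 to 13230, 5462 to 6541, 4585 to 5784 and 4404 to 6528, with 0 of 4 tested called higher and 3 lower. Keratinocyte markers had 235.9 to 292.7, 170.7 to 218.0, 110.8 to 191.0, 85.2 to 172.5 and 127.6 to 168.7, with 0 of 3 tested called higher and 2 lower, and Krt1 lay below the filter. The part of these shifts in the members' values was not tested.

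Marrow cells and lymphocytes can divide too, so their lists are given in the same order. Granulocyte progenitor markers (Mpo, Elane, Prtn3, Ctsg and Ms4a3) summed to 158.2 to 201.7, 176.9 to 386.5, 167.3 to 208.2, 138.9 to 477.4 and 158.3 to 196.4, with 0 of 4 tested called higher and 0 lower, and Ctsg lay below the filter. Erythroid markers gave 209.9 to 247.9, 212.7 to 239.4, 165.0 to 275.2, 199.4 to 369.6 and 207.6 to 264.1, with 1 of 6 tested called higher and 1 lower. B cell precursor markers ran at 17.8 to 51.0, 15.2 to 68.7, 35.4 to 50.6, 43.4 to 90.1 and 18.8 to 46.2, with 0 of 1 tested called higher and 0 lower, and Vpreb1, Rag1 and Dntt lay below the filter. The naive and severe ranges of these marrow lists overlapped. T cell markers summed to 83.0 to 154.2, 51.7 to 90.9, 131.5 to 215.3, 158.8 to 186.9 and 132.7 to 227.0, with 2 of 4 tested called higher and 0 lower, and Cd3d lay below the filter. Sums of B and plasma cell markers were 158.5 to 184.6, 166.4 to 207.1, 166.6 to 201.6, 176.9 to 385.7 and 203.1 to 240.3, with 0 of 4 tested called higher and 0 lower, and Cd79b lay below the filter. Moderate replicate 2 had the highest granulocyte progenitor (477.4), erythroid (369.6) and B and plasma cell (385.7) sums of all 15 arrays. The highest B cell precursor sum (90.1) was on moderate replicate 3. What these cells contribute to the members' values was not tested. RNA quality was read from the actin probe sets, whose 3′ to 5′ ratio was 0.977 ± 0.0757 (SD, n = 3) in naive joints against 1.25 ± 0.0321 (SD, n = 3) in severe ones, with group means of 1.1, 1.16 and 1.22 in unswollen, mild and moderate joints. The Gapdh ratio was 0.853 ± 0.0319 (SD, n = 3) in naive and 0.891 ± 0.067 (SD, n = 3) in severe joints. The part of RNA quality in the results was not tested.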

How the data were processed

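Biotin-labelled RNA of 15 mouse synovium samples was hybridised to Affymetrix arrays, per the labels' protocols. The deposited values are linear signal intensities that the authors made with MAS5, per the submitters' processing notes (version not given). Of 45101 probe sets, 34958 had 1 gene symbol in the platform annotation, 932 several and 9211 none; control probe sets were left out. From these intensities log2(signal + 16) was taken, and 14314 genes above the array's 40th percentile on at least 3 arrays were fitted with limma 3.58.1 in R 4.3.3 (group means of all 15 arrays, empirical Bayes with an intensity trend, two-sided, Benjamini-Hochberg over all genes). The number of arrays limits the precision. The fit was tested on simulated data. Alternatives covered the pseudocount, filter, scaling, probe set rule, trend, arrays fitted, array weights, replicate block and each array left out. The longest promoter window was added after the data were seen.

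The members and lists were chosen with earlier results of these data known. Signals of every array are printed for the 10 members with the highest and those with a negative called change in severe swelling, and for those called between neighbouring groups other than at the mild step; Ccnd2 and Cdk4, called between mild and severe swelling, were added after their values were seen. Of each further list, the 3 genes of lowest p in each direction are named, and all CDK inhibitors. Replicate numbers gave no pairing: correlations of same-numbered arrays ran from -0.506 to 0.334, and 5 of 30 exceeded 0.1.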

Additional observations from a re-analysis of the deposited data

How the results depend on the processing

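The counts of called members kept within 1.5 times of the reported ones for the 3 swollen groups against naive joints, for mild against no swelling and for any difference, under the 13 other settings (12 for the last) and with each array left out. The ranges over those settings were 34 to 44 for mild, 38 to 44 for moderate and 38 to 45 for severe against naive, 35 to 45 for mild against no swelling and 38 to 46 for any difference. The lowest count of each range came from the filter at the 60th percentile, where 40 members were tested. The 46 for any difference came from the fit without a filter, where 48 were tested. With single arrays left out they were 38 to 41, 41 to 44, 43 to 45, 36 to 41 and 42 to 44. From moderate to severe swelling 0 members were called in every case. For no swelling against naive 3 were called. The count was 1 with a pseudocount of 64, without the intensity trend or with only the groups compared. It was 0 with scaling on hybridization controls, 5 with array weights, and 0 to 6 with single arrays left out. For moderate against mild 1 was called. The count was 2 with a pseudocount of 64 or array weights, and 0 to 2 with single arrays left out. It was 0 without a filter, with medians aligned, hybridization scaling or the replicate block, without the trend or with only the groups compared. For severe against mild 2 were called. The count was 1 with medians aligned, without the trend or with the replicate block. It was 0 with hybridization scaling or only the groups compared, 4 with array weights, and 0 to 3 with single arrays left out. The cause was not tested. The replicate block is given as a check only, since the numbers did not pair the arrays. The setting meant to average a gene's probe sets did not give averages. Under it Ccne2, with 1 probe set, went from -0.444 to -0.222 for moderate against naive. It is among the 13 settings, but none of the range ends comes from it and its other values are not given singly.

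Hybridization scaling took the median of all genes from 0.09 to 0.78 for mild against no swelling. Between mild and no swelling the sign turned for genes not called: Rrm1 (0.06) to -0.031 with quantile normalization, -0.061 with medians aligned and -0.019 with probe sets averaged, Ccne2 (-0.22) to 0.53 and Aurka (-0.01) to 0.77 with hybridization scaling, where Aurka was called higher (adjusted p = 0.0252), and Aurka to 0.002 with probe sets averaged. With single arrays left out Rrm1 ran from -0.019 to 0.125, at or below 0 in 2 of 15 cases, and Aurka from -0.11 to 0.128; neither was called.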
